A study of Zea mays with 12 samples.

Results

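A group of 102 genes had raised expression in maize bract primordia when *tsh4* was lost, with or without *tsh1*, and stayed near the wild-type level when only *tsh1* was lost. Genes were chosen by their values in these same libraries. For each gene, d was the mean of log2(CPM + 0.1) in a mutant genotype minus the mean in B73, where CPM is the normalised read count scaled to library size. A gene entered the group with d of at least 1 in *tsh4* and in the *tsh1 tsh4* double mutant, an absolute d under 0.5 in *tsh1*, a mean over the 12 libraries of at least 1 CPM, and all *tsh4* and double mutant libraries above all B73 libraries. Of the 20168 genes listed, 105 met these conditions, and 3 of them were left out because the study had already drawn them in its heat map of developmental genes. The 102 remaining genes are 0.506% of those listed.

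The libraries were made from RNA of laser-microdissected ear bract primordia, in 3 biological replicates each of *tsh4*, of the *tsh1 tsh4* double mutant (DM), of *tsh1* and of the wild-type inbred line B73. The *tsh4* plants carried *tsh4-rm*, whose first intron holds a *Mutator* transposon, and the *tsh1* plants carried *tsh1-ref*, a *Mu* insertion with a large deletion. The DM carried both alleles. Each allele had been introgressed repeatedly into B73, so the 4 genotypes share that background, while donor DNA may remain around each locus. The RNA of all libraries was amplified in vitro before sequencing.

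*tsh4* encodes a transcription factor of the SBP-box family, which is held down by a microRNA in young shoots and promotes the passage to the reproductive phase. *tsh1* encodes a GATA zinc-finger transcription factor. Both are expressed in the bract primordium, the leaf that subtends a branch or spikelet in the grass inflorescence and normally stays a small ridge. In *tsh1* and *tsh4* mutants these bracts grow out, and branching is reduced. The group describes genes that changed with *tsh4* loss and stayed within 0.5 of B73 in *tsh1*. That limit does not exclude smaller effects of *tsh1* loss, and *tsh1* expression was itself reduced in *tsh4*.

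Between 49481413 and 110703826 reads per library lay behind the values, and a floor of 3 reads corresponded to 0.0265 to 0.0651 CPM. This floor covers counting error only. *tsh4* itself was expressed at 73.7 ± 7.83 CPM (SD, n = 3) in *tsh4*, 60.1 ± 16.7 CPM in DM, 1063 ± 273 CPM in *tsh1* and 1323 ± 249 CPM in B73. *tsh1* was at 22.5 ± 3.42 CPM in *tsh4*, 0.521 ± 0.0749 CPM in DM, 0.527 ± 0.246 CPM in *tsh1* and 67.4 ± 19.6 CPM in B73. The bract marker *zyb15* was high in all 12 libraries, at 1033 to 1804 CPM, and no mutant differed from B73 in it past the thresholds. The summed expression of 5 axillary meristem and boundary genes (*ba1*, *baf1*, *ZmCUC3*, *ra1* and *ra3*) was 190.7 to 262 CPM in *tsh4*, 159 to 235 CPM in DM, 303 to 366 CPM in *tsh1* and 384 to 475 CPM in B73. All mutant libraries were thus below all B73 libraries, and those of *tsh4* and DM were the lowest. Of these 5 genes, *baf1* and *ZmCUC3* were called lower and *ra1* higher in *tsh4*, and *ba1* and *baf1* lower and *ra1* higher in DM. *ZmCUC3* (−0.99, adjusted p = 0.00373 from limma) and *ra3* (−0.95, adjusted p = 0.0064) passed in DM on the p-value but not on size. The meristem genes *kn1*, *lg3*, *lg4a* and *lg4b* summed to 208 to 277 CPM in *tsh4*, 231 to 377 CPM in DM, 238.5 to 376 CPM in *tsh1* and 364 to 441 CPM in B73, so that all *tsh4* libraries and part of those of DM and *tsh1* lay below B73. None of the 4 was called, because none changed by 1 log2 unit, but *lg3* in *tsh4* (−0.74, adjusted p = 0.0424 from limma) and *lg4b* in *tsh4* (−0.74, adjusted p = 0.0371) and in DM (−0.79, adjusted p = 0.0176) passed on the p-value. The part that a changed mix of captured cells had in the group was not tested, and in such bulk samples a change in the number of cells of a type and a change in RNA per cell cannot be told apart.

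Across the 102 genes, the median d was 1.52 in *tsh4* (1.01 to 6.57), 1.55 in DM (1.01 to 6.59) and 0.02 in *tsh1* (−0.49 to 0.49). The medians over all listed genes were −0.01, −0.01 and 0.00 in the same 3 mutants. These values follow from the choice of the genes and carry no test. The smaller of the *tsh4* and DM differences lay between 1 and 2 for 81 genes, between 2 and 4 for 15 and at 4 or more for 6, so most of the group changed moderately and a small set changed by a large amount. Inside the limits set on *tsh1*, 54 genes had a positive d and 47 a negative one. Together the 102 genes made up 2674 ± 368 CPM in *tsh4* (SD, n = 3), 2845 ± 228 CPM in DM, 1010 ± 138 CPM in *tsh1* and 961 ± 89.5 CPM in B73. By limma with Benjamini-Hochberg adjustment, where a call needed an adjusted p no higher than 0.05 and a log2 fold change of 1 or more in size, 97 of the 102 genes were called higher in *tsh4* against 2.04% of all genes. In DM 100 of the 102 were called higher against 2.69% of all genes, and in *tsh1* 0 of the 102 were called against 1.16% of all genes, with 2 at an unadjusted p under 0.05 (9.3% of all genes). The choice of the genes fixes these counts.

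**Figure D1:**
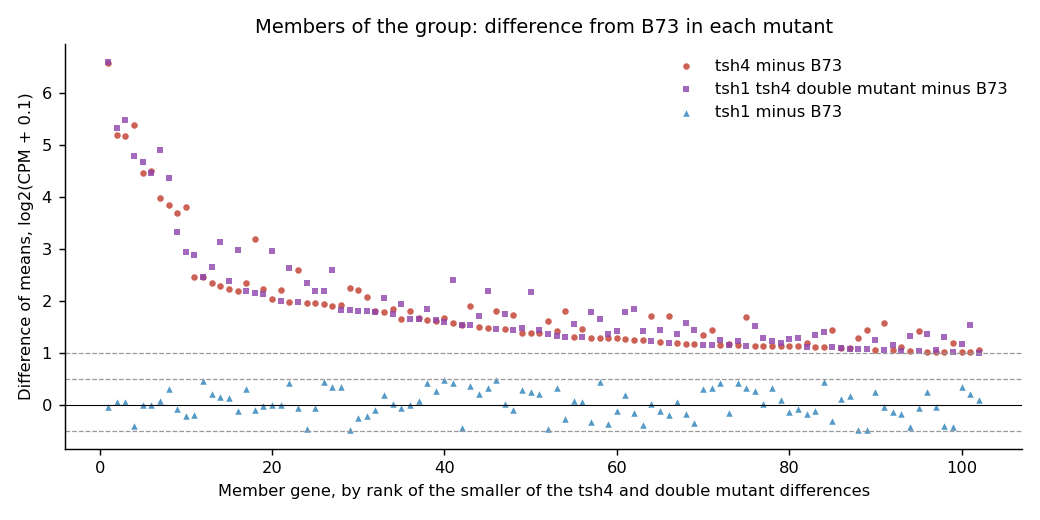
Difference of the genotype mean from B73 on the log2(CPM + 0.1) scale for each of the 102 genes, in order of the smaller of the *tsh4* and DM differences. Circles stand for *tsh4*, squares for the double mutant and triangles for *tsh1*; dashed lines mark the limits at 1, 0.5 and −0.5, and 6 genes at the left lie at 4 or more in both *tsh4* and DM.

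The group held few abundant genes. Its median expression over the 12 libraries was 4.87 CPM, against 17.1 CPM for the 17272 listed genes with a mean of at least 1 CPM. A mean of 1 to 5 CPM was found for 53 genes, 5 to 20 CPM for 34, 20 to 100 CPM for 11 and over 100 CPM for 4. Above the floor of 3 reads in all 12 libraries were 95 genes, and all 102 were above it in every *tsh4* and DM library. All 102 also had a higher mean in *tsh4* and in DM than in *tsh1*, by a median of 1.53 and 1.57 on the log2 scale. The rule fixes the direction of this difference. In 97 of the 102 genes all *tsh4* and DM libraries lay above all *tsh1* libraries, against 3.74% of all genes. The choice of the genes largely fixes this count too. The 5 that overlapped were GRMZM2G143400, GRMZM2G473152, GRMZM2G147014, GRMZM2G041415 and GRMZM2G382537.

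The transcription factors of the group included *gt1* and *tga1*, genes known from the domestication and architecture of maize. *gt1* (GRMZM2G005624) encodes a class I homeodomain leucine zipper protein that represses the outgrowth of lateral buds and of carpels in the tassel. Its expression was 103, 97.9 and 103 CPM in *tsh4*, 101, 99.9 and 104 CPM in DM, 19.4, 27.3 and 32.2 CPM in *tsh1*, and 32.4, 31.1 and 41.6 CPM in B73. The *tsh4* and DM libraries were almost level and far from those of *tsh1* and B73, where the range was wider in proportion and the 2 genotypes overlapped. The mean was 2.89 times that of B73 in *tsh4* and 2.90 times in DM. The SD among replicates was 2.82 CPM in *tsh4* and 2.49 CPM in DM, against 6.45 CPM in *tsh1* and 5.72 CPM in B73 (n = 3 each).

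*tga1* (GRMZM2G101511, *teosinte glume architecture1*) belongs to the SBP-box family, as *tsh4* does, and sets the size and hardness of the glume around the kernel. It was at 13.2, 10.96 and 16.5 CPM in *tsh4*, 20.4, 7.66 and 12.4 CPM in DM, 2.78, 3.42 and 2.12 CPM in *tsh1*, and 3.223, 1.96 and 3.32 CPM in B73. The lowest DM library was thus more than 2 times the highest B73 and *tsh1* libraries, while the DM libraries differed more among themselves than those of any other genotype. The mean was 4.79 times that of B73 in *tsh4* and 4.77 times in DM. Among the 20 SBP-box genes recognised by their names in the RefSeq gene table, *tga1* alone was called higher in *tsh4* and 2 were called lower, *tsh4* itself and *sbp2*. In DM 3 were called higher and 3 lower. The other genes called higher there were *sbp29*, at 589 CPM in DM, 219.8 CPM in *tsh4*, 553.5 CPM in *tsh1* and 203 CPM in B73, and *sbp3*, at 6.38 CPM in DM, 3.96 CPM in *tsh4*, 4.27 CPM in *tsh1* and 2.53 CPM in B73. Neither followed the pattern of *tga1*, since *sbp29* was high in *tsh1* and not in *tsh4*. The median log2 fold change of the 20 genes was 0.11 in *tsh4* and 0.02 in DM. Over all listed genes, 2.04% were called higher and 1.77% lower in *tsh4*, and 2.69% higher and 3.15% lower in DM. These are the shares to set beside the counts of this and each later family. Every family holds at least 1 gene of the group, which its counts and median include. Reads of closely related SBP-box genes could have been assigned to one another, and this was not tested.

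**Figure D2:**
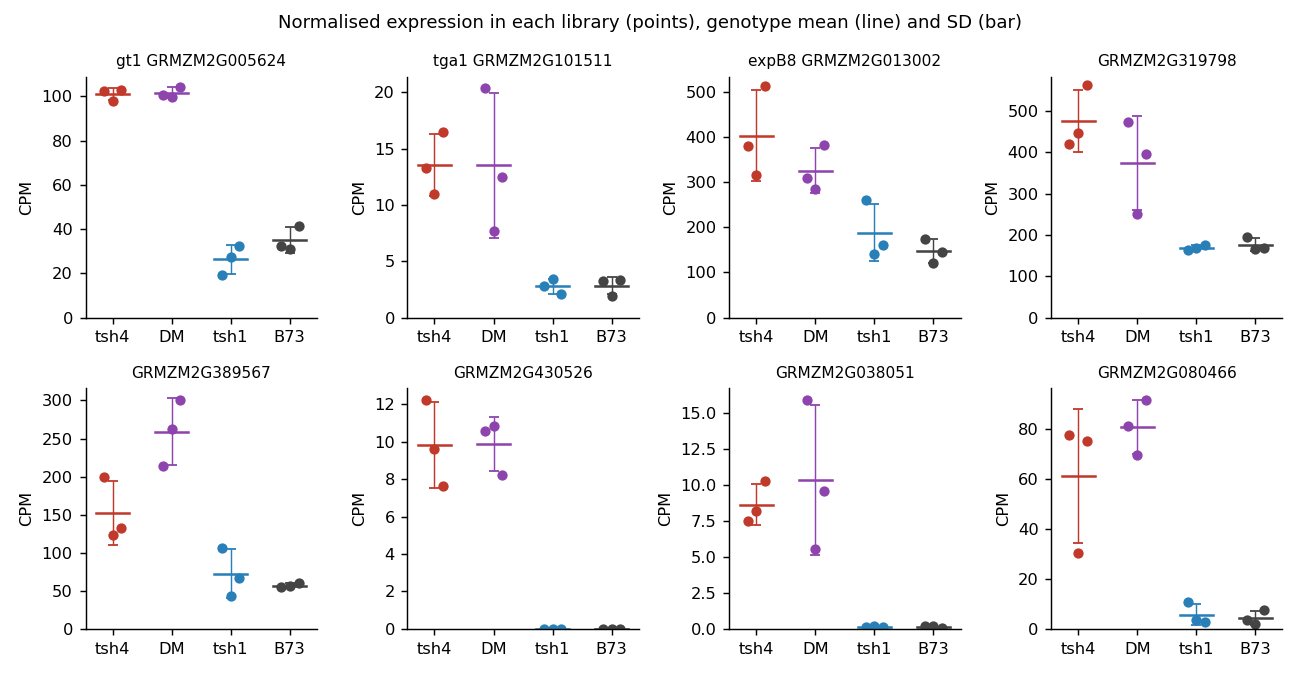
Normalised expression in CPM of 8 genes of the group in each library (points) with the genotype mean (line) and SD (bar, n = 3), for *tsh4*, the double mutant (DM), *tsh1* and B73. For *gt1* the 6 *tsh4* and DM libraries lie between 97.9 and 104 CPM and the 6 others between 19.4 and 41.6 CPM; GRMZM2G430526 is at 0 or 0.009 CPM without *tsh4* loss.

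Other regulators with a name in the reference were less abundant. *OFP24* (GRMZM2G100133), of the ovate family of transcriptional repressors, was at 7.40, 8.92 and 14.6 CPM in *tsh4*, 14.8, 20.5 and 18.8 CPM in DM, 4.25, 1.24 and 1.89 CPM in *tsh1*, and 1.404, 1.80 and 2.84 CPM in B73. Every DM library was above every *tsh4* library, though 14.6 and 14.8 CPM were nearly equal. Of 8 ovate family genes recognised, 4 were called higher in *tsh4* (*OFP24*, *OFP16*, *OFP25* and *OFP32*) and 1 lower (*OFP29*), with a median log2 fold change of 1.21, whereas in DM 1 was called in each direction, with a median of 0.83. *OFP16* and *OFP32* had log2 fold changes of 1.26 and 1.15 in *tsh4* but 0.90 and 0.76 in DM, and so lay outside the group. *OFP16* also failed the limit on *tsh1*, with 0.56.

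The TIFY gene *TIFY1* (GRMZM2G343157), of the family that includes the repressors of jasmonate signalling, had 12.3, 9.95 and 12.6 CPM in *tsh4*, 12.1, 12.2 and 15.1 CPM in DM, 4.13, 4.08 and 2.97 CPM in *tsh1*, and 6.67, 4 and 4.21 CPM in B73. Its family did not share this change, as 1 of 14 TIFY genes was called higher and 1 lower in *tsh4*, and 1 higher and 2 lower in DM. The gene lowered in both, *TIFY15*, was more abundant, at 124 CPM in *tsh4*, 169 CPM in DM, 130 CPM in *tsh1* and 398 CPM in B73. *Myb56* (GRMZM2G041415) was at 3.69, 4.11 and 3.87 CPM in *tsh4*, 3.65, 1.55 and 3.19 CPM in DM, 1.38, 2.69 and 0.802 CPM in *tsh1*, and 1.01, 1.18 and 1.22 CPM in B73. It is among the 5 genes that overlapped with *tsh1* and 1 of the 2 that were not called in DM. The bZIP gene *bZIP17* (GRMZM2G103647) varied most among the named regulators, with 2.35, 3.00 and 4.33 CPM in *tsh4*, 5.10, 1.39 and 5.97 CPM in DM, 0.459, 1.204 and 0.499 CPM in *tsh1*, and 0.397, 0.405 and 1.199 CPM in B73. *MYR1* (GRMZM2G117193) and *HIT2* (GRMZM2G126765), the other genes with a symbol, had 5.22 to 7.50 and 7.27 to 12.3 CPM in *tsh4*, 4.42 to 10.9 and 6.11 to 11.3 CPM in DM, 2.31 to 2.77 and 2.93 to 4.45 CPM in *tsh1*, and 2.19 to 4.09 and 3.68 to 4.41 CPM in B73. For both, the *tsh1* and B73 libraries overlapped. Of the 37 MYB genes, 3 were called higher and 2 lower in *tsh4*, and 1 higher and 4 lower in DM. The gene called higher in both was *MYB59* (GRMZM2G130149), at 32.1 CPM in *tsh4*, 23.5 CPM in DM, 0.361 CPM in *tsh1* and 0.198 CPM in B73. Its d in *tsh1* was 0.60, past the limit of the rule. Of 23 bZIP genes, 2 were called higher and 0 lower in *tsh4*, and 2 higher and 1 lower in DM. Among 19 homeobox genes, *gt1* was the one called higher in *tsh4* and in DM, with 3 called lower in *tsh4* and 4 in DM.

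Genes of cell walls and water transport were among the more abundant of the group. *expB8* (GRMZM2G013002) encodes a beta-expansin, a protein that loosens the walls of growing grass cells. It was expressed at 378, 315 and 512 CPM in *tsh4*, 308, 285 and 381 CPM in DM, 260.3, 142 and 161 CPM in *tsh1*, and 174, 120.3 and 145 CPM in B73. The *tsh1* library at 260.3 CPM came close to the lowest DM library, and the other 5 libraries with *tsh4* function were at or under 174 CPM. Of 7 expansin genes recognised, 2 were called higher and 0 lower in *tsh4*, and the same counts held in DM. The other gene called was *expB6*, at 2.26 CPM in *tsh4*, 2.49 CPM in DM, 1.53 CPM in *tsh1* and 0.856 CPM in B73. The median log2 fold change of the 7 genes was 0.51 in *tsh4* and 0.64 in DM, against −0.01 for all listed genes in either mutant. As *expB8* is among the 7 and was chosen by these values, the comparison is a description and carries no test.

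Among aquaporins, channels for water and small solutes, *ZmPIP2-2* (GRMZM2G092125) was at 23.2, 27.4 and 25.1 CPM in *tsh4*, 22.1, 23.7 and 25.5 CPM in DM, 10.3, 13.7 and 11.4 CPM in *tsh1*, and 9.44, 9.23 and 9.37 CPM in B73. *ZmNIP1-1* (GRMZM2G041980) was at 17.2, 21.97 and 21.4 CPM in *tsh4*, 27.8, 21.1 and 26.8 CPM in DM, 3.79, 5.63 and 4.36 CPM in *tsh1*, and 3.01, 3.86 and 5.02 CPM in B73. Both were separated from *tsh1* and B73 by a wide gap, and the change of *ZmNIP1-1* was the larger, with a d of 2.34 in *tsh4* and 2.66 in DM against 1.42 and 1.33 for *ZmPIP2-2*. The family as a whole was mixed, since 2 of 18 aquaporin genes were called higher and 2 lower in *tsh4*, and 3 higher and 3 lower in DM. The lowered genes in *tsh4* were *TIP2-1*, at 0.284 CPM against 1.16 CPM in B73, and *NIP2-2*, at 0.325 CPM against 2.20 CPM in B73.

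*aoc1* (GRMZM2G077316) encodes allene oxide cyclase, an enzyme of jasmonate synthesis, and was the gene nearest to the limit on DM. Its expression was 29.1, 26.6 and 26.7 CPM in *tsh4*, 31.8, 22.1 and 26.8 CPM in DM, 12.4, 15.2 and 15.01 CPM in *tsh1*, and 10.3, 17.3 and 12.8 CPM in B73. The other genes of jasmonate synthesis were mixed, since of 14 recognised 2 were called higher and 3 lower in *tsh4*, and 2 higher and 2 lower in DM. Beside *aoc1*, the genes called higher were those of allene oxide synthases, *aos3* in *tsh4*, at 0.384 CPM against 0.0437 CPM in B73, and *aos1* in DM, at 3.36 CPM against 0.333 CPM in B73. The lipoxygenase gene *lox1* was called lower in both, at 0.980 CPM in *tsh4*, 0.782 CPM in DM, 3.70 CPM in *tsh1* and 5.85 CPM in B73. GRMZM2G378106, listed in the reference as *GH3*, a family of enzymes that conjugate auxin or jasmonate to amino acids, had 4.68, 4.56 and 4.24 CPM in *tsh4*, 3.19, 6.62 and 7.81 CPM in DM, 1.96, 1.19 and 1.65 CPM in *tsh1*, and 2.78, 1.498 and 2.31 CPM in B73. Its d was 1.04 in *tsh4*, close to the limit, and 1.33 in DM, where the libraries covered a wider range. It is 1 of the 5 genes of the group that were not called in *tsh4*.

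The most abundant gene, GRMZM2G319798, has no match in the reference, and was at 421, 448 and 562 CPM in *tsh4*, 475, 251 and 397 CPM in DM, 164, 169.6 and 175 CPM in *tsh1*, and 195, 166 and 168 CPM in B73. GRMZM2G052869 had 319, 231 and 417 CPM in *tsh4*, 384, 554 and 499 CPM in DM, 157, 88.4 and 119.9 CPM in *tsh1*, and 152, 124 and 120.1 CPM in B73. For both genes all *tsh4* and DM libraries lay above all *tsh1* and B73 libraries. The nearest values were 251 CPM in DM and 195 CPM in B73 for GRMZM2G319798. For GRMZM2G052869 they were 231 CPM in *tsh4* and 157 CPM in *tsh1*. GRMZM2G389567 had 199.8, 124 and 133 CPM in *tsh4*, 214, 262 and 301 CPM in DM, 107, 43.8 and 67.4 CPM in *tsh1*, and 54.4, 55.7 and 60.6 CPM in B73, so that the DM libraries stood above the *tsh4* libraries. The remaining genes with a high mean, GRMZM2G093731, GRMZM2G113349 and GRMZM2G034985, had between 53.1 and 93.5 CPM in *tsh4*, between 55.0 and 98.1 CPM in DM, between 9.61 and 49.5 CPM in *tsh1* and between 16.2 and 42.9 CPM in B73.

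A small set of genes was nearly silent where *tsh4* was intact. GRMZM2G430526 had 12.2, 9.63 and 7.63 CPM in *tsh4* and 10.6, 10.8 and 8.21 CPM in DM, against 0 CPM in all *tsh1* libraries and 0.009, 0 and 0 CPM in B73, where the highest library held 1 read. GRMZM2G069905 had 3.90, 3.70 and 3.57 CPM in *tsh4* and 5.62, 4.28 and 4.07 CPM in DM, against at most 0.035 CPM in *tsh1* and 0.018 CPM in B73. GRMZM2G013593 had 3.98, 1.26 and 2.03 CPM in *tsh4* and 2.31, 1.72 and 2.29 CPM in DM, and 0 CPM in all *tsh1* and B73 libraries. These 3 genes were at or under 3 reads in all 6 libraries with *tsh4* function. With 1 read in the 3 B73 libraries together, GRMZM2G430526 had 2368 times the B73 level in *tsh4* (95% exact counting interval 424.6 to 93590) and 2277 times in DM (408 to 89980). GRMZM2G069905 had 430 times the B73 level in *tsh4* (119 to 3557) and 542.5 times in DM (149.8 to 4486), from 2 reads in B73. These intervals cover counting error only, and their width shows how little the B73 reads fix the ratio. Against a floor of 3 reads per B73 library, GRMZM2G013593 was at least 55.6-fold higher in *tsh4* and at least 48.4-fold higher in DM.

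The other 3 genes with a d of at least 4 in both mutants were not silent in every such library. GRMZM2G038051, which lies beside *tsh4*, is described with the gene order.  GRMZM2G114639 was at 8.87, 8.43 and 10.035 CPM in *tsh4* and 6.14, 5.73 and 5.90 CPM in DM, against at most 0.218 CPM in *tsh1* and 0.411 CPM in B73. GRMZM2G007953 was at 2.93, 3.66 and 3.12 CPM in *tsh4* and 4.18, 5.45 and 2.36 CPM in DM, against at most 0.181 CPM in *tsh1* and 0.106 CPM in B73. Both exceeded 3 reads in 2 of the 3 B73 libraries and in 1 of the 3 *tsh1* libraries. The 10 largest changes were completed by GRMZM2G099454, GRMZM2G080466, GRMZM2G160614 and GRMZM2G004694. GRMZM2G080466 was the abundant gene among them, with 77.9, 30.5 and 75.5 CPM in *tsh4*, 81.4, 69.9 and 91.7 CPM in DM, 10.6, 3.49 and 2.95 CPM in *tsh1*, and 3.76, 1.97 and 7.48 CPM in B73. It had 13.9 times the B73 mean in *tsh4* and 18.4 times in DM. Of these 10 genes, 6 have no match in the reference gene table, which covers 75 of the 102 genes (73.5%) and 71.3% of all listed genes.

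The difference between DM and *tsh4* asks whether loss of *tsh1* moved these genes further once *tsh4* was gone. The rule set no direct limit on it, but required a d of at least 1 in both, from the same libraries. Genes that met all other conditions but failed on DM (25) or on *tsh4* (34) were left out. The choice of the genes thus narrows this difference, and the values and tests below describe genes chosen in that way. The median difference was 0.09 on the log2 scale (−1.04 to 0.93), with a positive difference for 61 genes and a negative one for 41, and the median of all listed genes was 0.00. None of the 102 genes passed the thresholds of limma with Benjamini-Hochberg adjustment over all 20168 genes, against 0.674% of all genes called in this contrast. Without adjustment, 14 genes (13.7%) had a p under 0.05, 12 higher and 2 lower in DM, against 6.63% of all genes in either direction. The count of calls in the group was also 0 by the quasi-likelihood test of edgeR and by DESeq2. The median 95% interval extended 0.57 to either side. It included 0 for 88 genes and lay within 1 log2 unit of 0 for 69, so for the other 33 genes these libraries could not bound the difference at that size.

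**Figure D3:**
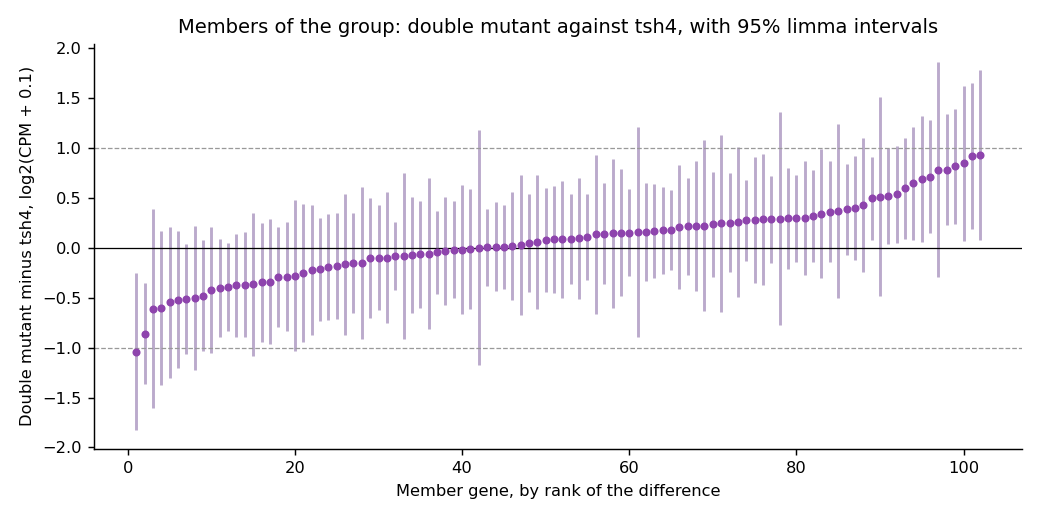
Difference of DM minus *tsh4* on the log2(CPM + 0.1) scale for the 102 genes, in order of size, with 95% intervals from limma (lines). Dashed lines mark −1 and 1; the points run from −1.04 to 0.93, and 88 of the intervals include 0.

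The lowest adjusted p in the group belonged to GRMZM2G004694. It had 7.89, 7.04 and 11.1 CPM in DM and 17.0, 13.1 and 16.8 CPM in *tsh4*, while *tsh1* libraries had 0.802 to 0.967 CPM and B73 libraries 0.846 to 1.39 CPM. All DM libraries were lower than all *tsh4* libraries, with a log2 difference of −0.86 (SE 0.24, 95% interval −1.36 to −0.36, adjusted p = 0.155 from limma). GRMZM2G026015 had the largest fall, with 1.98, 1.63 and 1.24 CPM in DM against 3.75, 2.93 and 3.50 CPM in *tsh4*, a log2 difference of −1.04 (−1.83 to −0.25, adjusted p = 0.407 from limma). Both genes stayed above every *tsh1* and B73 library. In the other direction GRMZM2G389567 had a log2 difference of 0.79 (0.23 to 1.34, adjusted p = 0.311 from limma), GRMZM2G105250 of 0.82 (0.24 to 1.39, adjusted p = 0.312) and GRMZM2G063747 of 0.92 (0.19 to 1.65, adjusted p = 0.463). No difference of these 5 genes passed the adjustment at the pseudocount of 0.1, whereas with a pseudocount of 1 that of GRMZM2G026015 was −0.75 with an adjusted p of 0.0246 from limma, still under the size needed for a call. In 13 genes all DM libraries were above all *tsh4* libraries, against 4.35% of all genes, and in 7 all were below, against 5.47%. A 2-sided exact permutation test of 3 against 3 libraries cannot give a p under 0.1. The named regulators and transport genes gave narrow intervals around small differences in some cases, as for *gt1* at 0.01 (−0.38 to 0.39) and *ZmPIP2-2* at −0.08 (−0.43 to 0.26), and wide ones in others, as for *tga1* at −0.10 (−0.76 to 0.56) and *bZIP17* at 0.16 (−0.90 to 1.21).

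Replicates of the group varied more than those of other genes. The median SD within a genotype on the log2 scale was 0.25 in *tsh4*, 0.35 in DM, 0.34 in *tsh1* and 0.34 in B73, against 0.18, 0.27, 0.27 and 0.21 for all genes with a mean of at least 1 CPM, which are also more abundant. The median of the group in a library deviated from its genotype by −0.19 in DM replicate 2 to 0.18 in *tsh4* replicate 3. Across the 12 libraries, the deviations of 2 genes from their genotype means had a median Pearson r of 0.16 over all pairs in the group, and 0.00 over all pairs of genes with a mean of at least 1 CPM. These correlations share libraries and depth and are given as a description. The low DM replicate 2 was seen in *tga1*, *bZIP17* and *Myb56* above, and without it the median d of the group in DM was 1.74.

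The order of genes on chromosomes was a feature the rule did not use. Order was taken from RefSeq's gene table for the assembly Zm-B73-REFERENCE-NAM-5.0, which is not the build of the counts, so no coordinates are given, and 72 of the 102 genes could be placed at a single locus. Of these, 12 (16.7%) were on chromosome 7, which carries *tsh4*, against 8.17% of the 13954 listed genes that could be placed. Within 300 listed genes of *tsh4* on either side lay 9 genes of the group (12.5%), against 4.3% of all placed genes, and within 100 lay 2 (2.78%), against 1.43%. These windows were chosen after the values were seen. The mirror group, 79 genes lowered in *tsh4* and DM by the same limits, was more concentrated there, with 23 of 57 placed genes (40.4%) on chromosome 7 and 17 (29.8%) within 300 genes of *tsh4*. Of 28 placed genes raised by at least 1 log2 unit in all 3 mutants, 3 were on chromosome 7 and 1 was within 300 genes. The other 60 placed genes of the raised group were on other chromosomes, *gt1* and *aoc1* among them on chromosome 1 and *tga1* on chromosome 4.

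GRMZM2G038051 stood 2 listed genes from *tsh4*. It had 7.49, 8.15 and 10.2 CPM in *tsh4* and 15.9, 5.56 and 9.57 CPM in DM, against 0.109, 0.192 and 0.152 CPM in *tsh1* and 0.185, 0.211 and 0.051 CPM in B73. The gene between it and *tsh4*, GRMZM2G419739, changed the other way, with 0.677, 0.563 and 1.86 CPM in *tsh4*, 0.589, 0.663 and 0.414 CPM in DM, 6.42, 13.4 and 9.07 CPM in *tsh1*, and 10.4, 10.01 and 11.1 CPM in B73. The next 4 listed genes on that side were not called in either mutant, nor were the nearest 6 on the other side. Among the latter, GRMZM2G085467 passed in *tsh4* on the p-value but not on size (log2 fold change 0.99, adjusted p = 0.0378 from limma). All *tsh4* and DM libraries carry *tsh4-rm* with any donor DNA still linked to it, and all *tsh1* and B73 libraries lack it. For genes on chromosome 7, an effect of *tsh4* loss and an effect of linked donor alleles therefore cannot be told apart in these libraries. The same limit holds for genes of the group without a single placed locus, whose position relative to *tsh4* is not known here. Among those are GRMZM2G430526, GRMZM2G069905 and GRMZM2G013593, the genes nearly silent where *tsh4* was intact. Whether donor DNA also remained on other chromosomes was not tested.

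**Figure D4:**
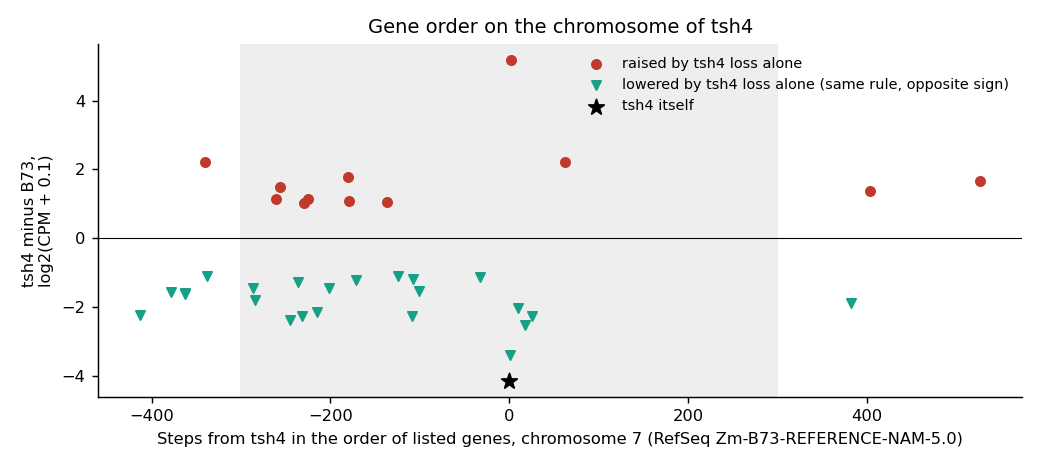
Genes of chromosome 7 by their steps from *tsh4* in the order of listed genes (horizontal) and their log2(CPM + 0.1) difference of *tsh4* from B73 (vertical). Circles are the 12 genes of the raised group, triangles the 23 genes of the mirror group and the star *tsh4*; the shaded band spans 300 genes on either side, and holds 9 circles.

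Some genes of the group lay close to each other. GRMZM2G476685 and GRMZM2G122780 are neighbours on chromosome 7, with 16.6, 14.7 and 19.7 CPM and 45.3, 45.9 and 35.8 CPM in *tsh4*, and 4.83, 3.88 and 6.03 CPM and 24.1, 19.5 and 16.1 CPM in B73. On chromosome 1, *gt1* was followed after 4 listed genes by GRMZM2G301885, at 9.33, 10.8 and 12.2 CPM in *tsh4*, 11.5, 8.92 and 7.95 CPM in DM, 5.00, 6.89 and 3.92 CPM in *tsh1*, and 5.92, 3.38 and 3.51 CPM in B73. Its lowest DM library, at 7.95 CPM, lay just above its highest *tsh1* library, at 6.89 CPM, a smaller gap than that of *gt1*. On chromosome 2, GRMZM2G137541, GRMZM2G403276 and GRMZM2G080466 followed each other by 3 and 9 listed genes. GRMZM5G801875 and GRMZM2G007953 on chromosome 4, and GRMZM2G162295 and GRMZM2G064382 on chromosome 6, were each 4 listed genes apart.

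The limits of the rule cut through a continuous range of values. GRMZM2G156365 was the last gene inside the limit on *tsh4*, with a d of 1.01, and GRMZM2G303915 the first outside it, with 0.9986. For DM, *aoc1* was inside with 1.01 and GRMZM2G063276 outside with 0.98. On the *tsh1* side, GRMZM2G473152 was inside with 0.49 and GRMZM5G870067 outside with 0.50. For the mean, GRMZM2G046316 was inside with 1.13 CPM and GRMZM2G322819 outside with 0.993 CPM. Apart from the 102, 126 genes met all conditions but the one on *tsh1*, 84 all but the mean, 34 all but the one on *tsh4*, 25 all but the one on DM and 4 all but the one on overlap.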

How the data were processed

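RNA of laser-microdissected bract primordia was sequenced in 12 libraries, 3 per genotype. The authors used Trimmomatic 0.36 for trimming, STAR 2.6.0a for alignment to the B73 reference AGPv3 and featureCounts for counting, and removed genes above 0.25 CPM in fewer than 3 libraries. The strand setting of the counting is not given in the sources used here. The authors deposited TMM-normalized CPM from edgeR 3.22.5, treated here as a normalised signal. Reads per value were recovered from the steps between values, and 100% of values came out whole within 0.0011 CPM.

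Contrasts were fitted with limma 3.58.1 (R 4.3.3, eBayes with trend) on log2(CPM + 0.1), which understates changes of weakly expressed genes, in 1 fit to 12 libraries and 20168 genes with Benjamini-Hochberg adjustment. Recovered reads entered only depth, floors and the alternatives in edgeR 4.0.16 and DESeq2 1.42.0. Other alternatives were pseudocounts, filters, limits of the rule, equal library totals, centring, a replicate block and leaving out each library.

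The group, its comparison groups and the gene families were chosen with earlier results of these data known. Genes were named for the 10 largest changes, the 8 highest means, a symbol in the RefSeq table, nearness to a limit of the rule or to another gene of the group, and the 5 leading differences between DM and *tsh4* were chosen after their values were seen. Families were recognised by symbol only, the heat map of the study gave 56 genes to leave out, and *tsh1* and *tsh4* were found in the table by their mean levels. A further gene of the meristem list is not reported here.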

Additional observations from a re-analysis of the deposited data

How the results depend on the processing

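Across the settings tried, the number of genes that met the rule was 57 with an absolute d in *tsh1* under 0.25, 172 with it under 1 and 186 with no limit on the mean, and 90 to 124 when single libraries were left out, of which 79 to 101 were among the 102. With a pseudocount of 1 it was 91, of which 67 were shared, the median d of the 102 genes was 1.19 in *tsh4* and 1.22 in DM, and over all genes 414 were called in *tsh4*, 650 in DM and 150 in *tsh1*. Leaving out single libraries gave a median d of 1.41 to 1.58 in *tsh4* and 1.504 to 1.74 in DM. None of the 102 genes was called between DM and *tsh4* under any of the 22 alternatives. The 14 genes with an unadjusted p under 0.05, chosen in the main fit, kept the direction of their difference in all 210 refits. Refits without a B73 or *tsh1* library, or with the replicate block, could not change that difference. Their agreement was thus fixed in advance. Over all genes, 136 calls between DM and *tsh4* became 85 with only genes of a mean of at least 1 CPM, 214 by DESeq2 and 71 to 160 with single libraries left out, with 71 without *tsh4* replicate 3, 74 without *tsh4* replicate 2 and 85 without DM replicate 3. With the same filter 763 genes were called in DM (1178 without it), and DESeq2 called 370 in *tsh1* (234 by limma).

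Of 18 pairs of libraries with the same replicate number, 11 deviated together with an r over 0.1 and 7 did not (−0.41 to 0.73), so the numbers were not taken as pairs. The best match of a library in another genotype had its own number in 17 of 36 cases. With the number as a replicate block, 96 of the 102 genes were called in *tsh4*, 99 in DM, 0 in *tsh1* and 0 between DM and *tsh4*, and over all genes 740, 1112, 193 and 102 were. The search of promoter windows for a motif was not run, because no sequences were used here. Depth limits the 3 genes that had 3 reads or fewer in every B73 library. It also limits others with few B73 reads, such as GRMZM2G007953 with 0 to 6 per library. Having 3 libraries per genotype limits all genes.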
